A study of Homo sapiens with 15 samples.

Results

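In parental cells of the established human prostate carcinoma line 22Rv1, 2591 FOXA1 binding sites were listed after exposure to PladB (pladienolide B) and in none of 4 other parental lists. These sites were chosen from the deposited chromatin immunoprecipitation sequencing (ChIP-seq) peak lists by one rule: a PladB peak that overlaps, by 1 bp or more, no peak called with DMSO, with the stereoprobes WX-02-23 or WX-02-43, or with a control small interfering RNA (siControl). They made up 7.82% (95% Wilson interval 7.54 to 8.12%) of the 33121 PladB peaks, and are called PladB-alone sites here. The remaining 30530 PladB peaks are called shared. Across all 12 FOXA1 lists of the series 249079 peaks were deposited, and 3 input libraries were not analysed here.

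FOXA1 is a forkhead transcription factor that can bind its sites in compacted chromatin and open them for other regulators, in prostate cells above all for the androgen receptor. Pladienolide B binds the SF3B complex of the spliceosome, at a pocket formed by SF3B1 and PHF5A, and blocks splicing. The Y36C form of PHF5A is known to make cells less sensitive to it. A FOXA1 list taken after PladB therefore shows where the factor was called after exposure to a splicing inhibitor. Splicing itself was not measured here.

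Each group was 1 library, so conditions could not be compared against a replicate spread and no p-value is given. Parental cells received DMSO (0.1%), WX-02-23 or WX-02-43 (20 µM each), or PladB for 3 h, or siControl, or a small interfering RNA against FOXA1 (siFOXA1). For the parental PladB library the sample's own label gives 100 nM, whereas the protocol text gives 10 nM for parental cells and keeps 100 nM for engineered ones, so the dose is uncertain. Both engineered lines stably expressed Y36C-PHF5A and carried doxycycline-inducible FOXA1, wild type (WT) in one and with the C258A change in the other. Each engineered line was profiled in 3 states: uninduced with DMSO, induced with DMSO, and induced with 20 µM WX-02-23. The labels give no dose or time for doxycycline or the interfering RNAs, and since the antibody is given as FOXA1 without a tag, induced and own FOXA1 cannot be told apart. None of the engineered libraries was treated with PladB.

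The lists differed in length, from 3018 peaks (siFOXA1) to 34119 (siControl). Read depth behind them is unknown, and a list can be long because of deep sequencing or strong enrichment as well as many bound sites. Intervals below are Wilson 95% intervals for shares and order-statistic 95% intervals for medians. They cover counting error within these libraries and treat sites as independent. For a count of 0 the upper limit given is that of 3 counts of the total.

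A set of peaks that a single library holds alone exists for every library, so the same rule was turned to each of the other 4 lists. The siControl list held 3335 such sites (9.77% of its peaks, 9.46 to 10.1%) and the DMSO list 1871 (6.12%, 5.86 to 6.40%). The PladB share of 7.82% lay between these 2 lists of cells without a compound. The WX-02-23 list held 1520 (8.83% of 17217 peaks) and the WX-02-43 list 309 (1.70% of 18228). In number and share, the PladB-alone set was thus inside the range that the DMSO and siControl libraries gave for themselves.

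How close the sites came to being shared was read from the partners of all PladB peaks. Of the 33121, 11728 (35.4%) had a peak in all 4 other lists, 6935 in 3, 7678 in 2 and 4189 in 1. The set would grow to 5386 sites were siControl left out of the rule, and to 3710 were DMSO left out. Leaving out WX-02-23 would add 209 sites and leaving out WX-02-43 would add 66. The size of the set therefore rested mainly on the siControl and DMSO lists, and on siControl more than on DMSO.

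The sites were weak within their own list. The score is the authors' value for each peak, with a definition that is not given in the sources used here, and it was used only to rank peaks within a list. Scores of the PladB-alone sites ran from 90, the lowest in the list, to 277, with a median of 106 (105 to 107). Their quartiles were 97.3 and 123, and the median of shared PladB peaks was 250. The strongest of them ranked 14024 of 33121. In all, 719 of the 2591 (27.7%) scored 120 or more, 216 (8.34%) 150 or more and 33 (1.27%) 200 or more. These scores come from the list that defined the set and are a description of it.

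**Figure D1:**
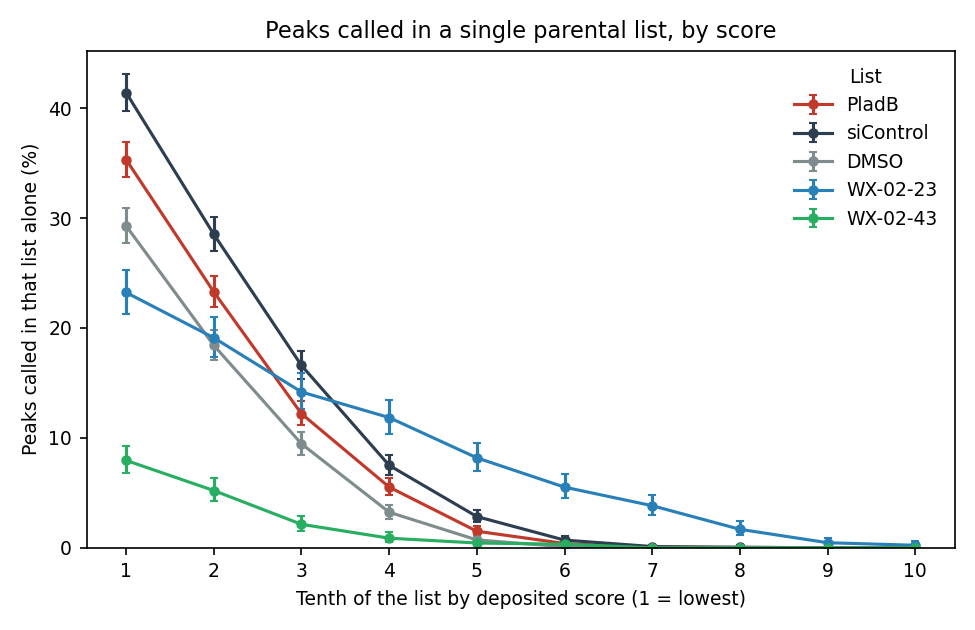
Share of each parental list's peaks that were called in that list alone (vertical axis, percent), in 10 equal steps of the list from lowest to highest deposited score (horizontal axis); bars are Wilson 95% intervals. The PladB curve starts at 35.3%, between siControl (41.4%) and DMSO (29.3%), and reaches 0 in the upper 4 steps, while the WX-02-23 curve starts lower and runs further up the list.

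Of the 10% of PladB peaks with the lowest scores, 35.3% (33.7 to 37.0%) were alone, and of the next 10%, 23.3%. The share fell to 12.2%, 5.53%, 1.51% and 0.393% in the following steps. None of the 13248 peaks in the upper 40% was alone, where a count of 0 allows a share of up to 0.0226%. The siControl list went through 41.4%, 28.5%, 16.6% and 7.50% over its first 4 steps and the DMSO list through 29.3%, 18.4%, 9.46% and 3.24%. The WX-02-23 list had another profile, with 23.2% in the lowest step and 5.52% still alone in the sixth. Its highest-scoring single-list site, at 917, ranked 1171 of 17217. Counted among the 17217 highest-scoring peaks of each list and against the other lists at full length, 19 PladB peaks were alone, against 10 for DMSO, 32 for siControl, 221 for WX-02-43 and 1520 for WX-02-23. This cut is the full length of the WX-02-23 list and near that of the WX-02-43 list (18228), so their low-scoring peaks stayed in. The 3 longer lists lost the low-scoring steps that held most of their single-list sites, so the counts are not like for like.

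PladB-alone sites had a median width of 619 bp (613 to 625), against 791 bp for shared PladB peaks, and ranged from 191 to 2443 bp. At like score the order of widths was not the same throughout. Between scores of 90 and 100 the median was 581 bp for 853 PladB-alone sites and 585 bp for 1460 shared peaks, and between 100 and 120 it was 609 bp for both. In higher ranges PladB-alone sites were the wider ones, at 658 against 649 bp between 120 and 150, and at 751 against 694 bp between 150 and 200 (183 sites). The 33 sites scoring 200 or more had a median width of 952 bp, against 754 bp for 4485 shared peaks with scores from 200 to 280. Single-list sites of siControl were 567 bp wide at the median, and those of DMSO 476 bp, with shared peaks in those lists also narrower than in the PladB list (754 and 697 bp).

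Most sites stood apart from the FOXA1 sites of DMSO cells. The median gap from the edge of a PladB-alone site to the nearest DMSO peak was 24820 bp (23190 to 26164). Of the 2591, 91 (3.51%) lay within 500 bp, 166 (6.41%) within 1 kb and 746 (28.8%) within 10 kb, while 271 (10.5%) were more than 100 kb away. Measured to the nearest peak of any of the 4 lists, the median gap was 18851 bp, and 133 sites (5.13%) lay within 500 bp.

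**Figure D2:**
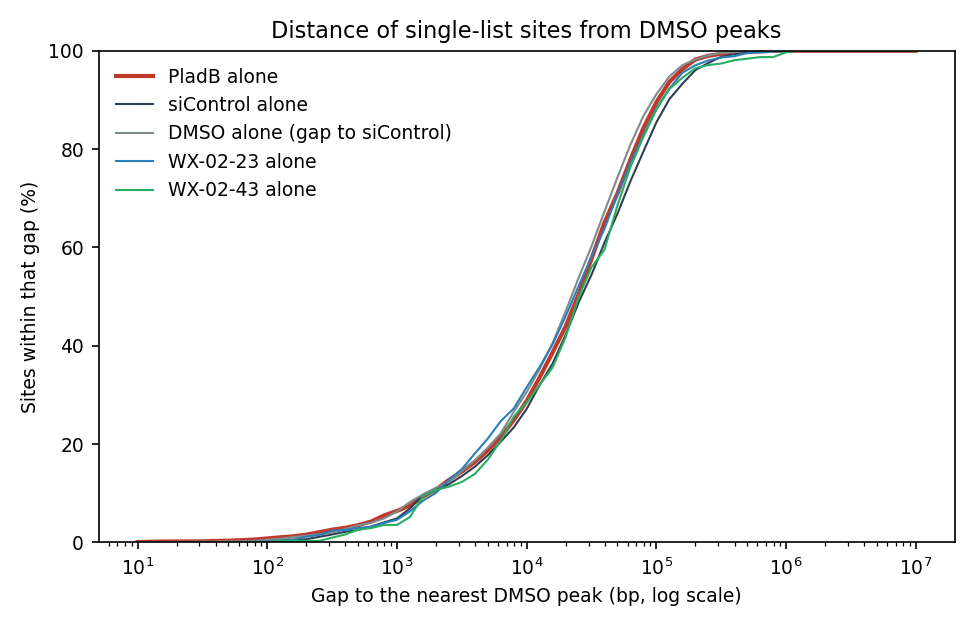
Cumulative share of single-list sites (vertical axis, percent) within a given gap of the nearest DMSO peak (horizontal axis, bp, log scale); for sites of the DMSO list itself the gap is to siControl peaks. The 5 curves lie close together, with medians from 22309 bp (DMSO) to 26729 bp (siControl) and 24820 bp for PladB.

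Score and width were set beside distance to the nearest DMSO peak. Median scores were 108 for the 166 sites within 1 kb of a DMSO peak and 105 for the 271 beyond 100 kb. Median widths fell over the same classes from 668.5 bp through 639.5 and 613 bp to 588 bp. The share called in WT cells with doxycycline and DMSO, a list that took no part in the rule, was 9.04% (5.55 to 14.4%) in the nearest class and 9.96% (6.94 to 14.1%) in the farthest, with 10.9% and 10.8% in between. Those 4 intervals overlapped. In C258A cells with doxycycline and WX-02-23, 1 of the 166 nearest sites was called (0.602%, 0.106 to 3.33%). That interval lay below those of the classes from 1 to 10 kb (6.03%, 4.37 to 8.28%), from 10 to 100 kb (4.57%, 3.65 to 5.72%) and beyond (5.90%, 3.67 to 9.37%). Measured to the nearest peak of any of the 4 lists, 6 of 217 sites within 1 kb were called in that list. Their interval (1.27 to 5.90%) overlapped those of the farther classes. In C258A cells without doxycycline the nearest class to DMSO peaks was called most, at 6.02% (3.31 to 10.7%) against 2.59% (1.57 to 4.22%) from 1 to 10 kb. Differences between distance classes were not tested.

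The rule's edge runs through few peaks. Just inside it, the 5 sites closest to a peak of another list lay 1, 7, 13, 13 and 14 bp away, where 1 means that the peaks touch. Their scores were 123, 94.99, 116, 102 and 106. Just outside it, the 5 PladB peaks with the shortest overlap shared 8, 14, 26, 38 and 41 bp, and their scores were 139, 94.2, 125, 224 and 101. In all, 31 sites lay within 100 bp of a peak that would have removed them, and 13 shared peaks were kept out of the set by an overlap of 100 bp or less.

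Most of the sites had no other PladB-alone site within 100 kb. The median gap from one PladB-alone site to the next nearest was 306 kb. Another site lay within 10 kb for 97 of them (3.74%) and within 100 kb for 589 (22.7%, 21.2 to 24.4%). For siControl-alone sites the latter share was 23.9% (22.5 to 25.4%) and for the fewer DMSO-alone sites 16.9%. Chained at gaps of up to 100 kb, 2002 sites stood alone, 522 formed 261 pairs, 63 formed 21 triplets and 4 formed the run with the most sites. That run lay on chromosome 12 from 119402859 to 119553608 (hg19), over 151 kb. It held 8 PladB peaks, 3 DMSO peaks and 5 siControl peaks, and its PladB-alone sites scored between 108 and 140. A triplet on chromosome 1 from 173618284 to 173794413 had 4 PladB peaks, 2 siControl peaks and neither a DMSO nor a WX-02-23 peak, and 2 of its 3 sites were called in an engineered list. The other named triplet, on chromosome 1 from 36614247 to 36720736, lay among 5 DMSO peaks and none of its sites was called in an engineered list.

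By chromosome, the sites followed the PladB list with a tilt towards gene-dense chromosomes. Chromosome 19, the most gene-dense, had the highest share of its PladB peaks alone, with 76 of 730 (10.4%, 8.40 to 12.8%). Chromosomes 17 (92 of 984, 9.35%) and 16 (73 of 784, 9.31%) came next, and chromosome 1 carried the most sites (284 of 3212, 8.84%). The lowest shares were on chromosomes 15 (50 of 880, 5.68%), 18 (45 of 718, 6.27%), Y (12 of 191, 6.28%) and 13 (66 of 1042, 6.33%). Intervals of neighbouring chromosomes in this order overlapped, and those of chromosome 19 and chromosome 15 (4.34 to 7.41%) did not.

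**Figure D3:**
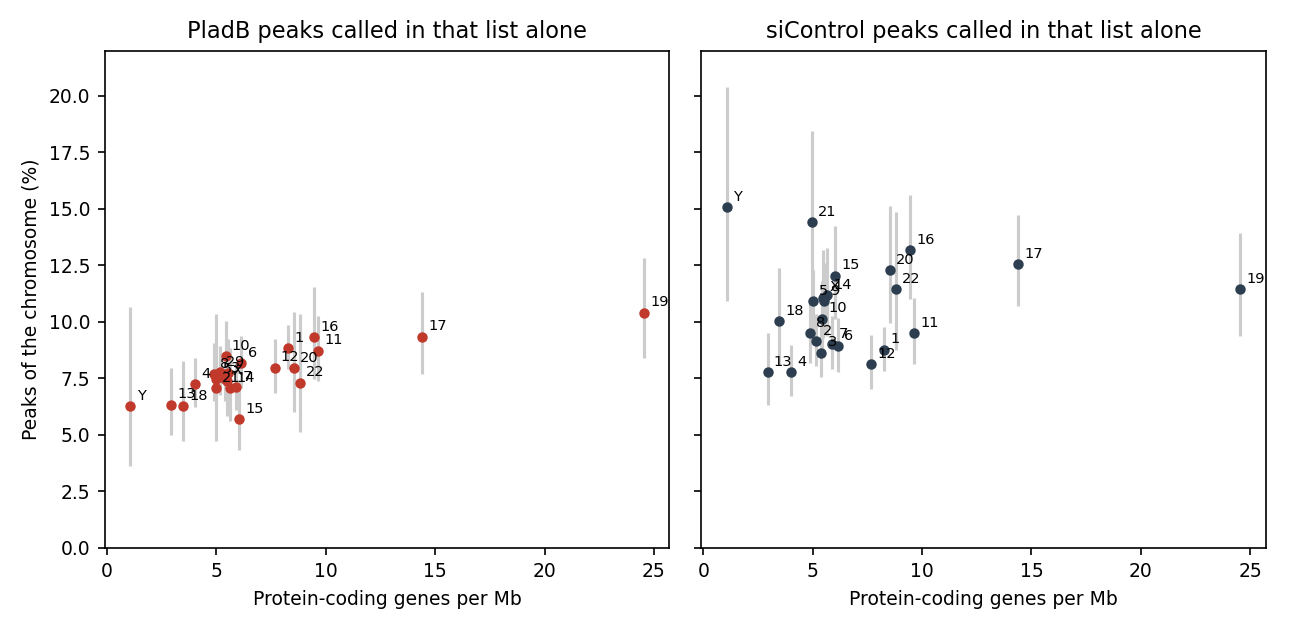
Share of each chromosome's peaks called in that list alone (vertical axis, percent, Wilson 95% intervals) against protein-coding genes per Mb (horizontal axis), for PladB (left) and siControl (right); points are the 24 chromosomes. PladB shares range from 5.68% on chromosome 15 to 10.4% on chromosome 19 and are mostly higher on gene-dense chromosomes, an order that siControl shares show less (r = 0.80 and 0.14).

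Over 24 chromosomes, the share alone and gene density (protein-coding genes in RefSeq per Mb of chromosome up to its last peak) had a Pearson r of 0.80 and a Spearman rho of 0.70 for PladB. Without the chromosomes farthest from the median density, 17 and 19, the values were 0.69 and 0.61. For siControl the corresponding values over all 24 were 0.14 and 0.25, for DMSO 0.27 and 0.07 and for WX-02-23 -0.39 and -0.58. All points of one series come from a single library, and chromosomes with few peaks are imprecise, so these are descriptions. Pooled, the 6 most gene-dense autosomes (19, 17, 11, 16, 22 and 20) had 8.99% (8.23 to 9.82%) of their PladB peaks alone and the 6 least dense (5, 21, 8, 4, 18 and 13) 7.17% (6.63 to 7.76%). In the siControl list the pooled shares also differed, at 11.5% (10.6 to 12.4%) and 9.44% (8.83 to 10.1%), so a difference between these pools was not particular to PladB. In the DMSO list they were 5.82% and 6.10%. The other 10 autosomes lay between the pools in the PladB list, at 7.8% (7.45 to 8.21%). In the siControl list those autosomes were at 9.33% (8.93 to 9.75%), near the share of the least dense ones. Sites on the dense and sparse autosomes had like median scores (107 and 106) and widths (617 and 605 bp).

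The engineered lists and the knockdown list took no part in the rule and show whether a site was found in another library. Of the 2591 sites, 384 (14.8%, 13.5 to 16.2%) were called in 1 or more of the 6 engineered lists, against 50.9% of all PladB peaks. The other 2207 (85.2%) were called in none of them. Of the 384, 188 were called in 1 engineered list, 81 in 2, 50 in 3, 54 in 4 and 11 in 5. None was called in all 6, which allows a share of up to 0.116%. The number of lists per site was not counted over all PladB peaks, so this split only describes the set.

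Without doxycycline, when the inducible FOXA1 was not induced, few sites were found. In WT cells 31 sites (1.20%, 0.844 to 1.69%) were called, against 24.6% of all PladB peaks. In C258A cells 85 (3.28%, 2.66 to 4.04%) were called, against 35.4%. Both lists called 12 of these sites. The WT peaks on these sites were weak in their own list, with a median at percentile 19.4 of score, whereas WT peaks on shared PladB sites had a median at percentile 51.4. In C258A cells the medians were at percentiles 22.0 and 53.0.

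With doxycycline and DMSO, 275 sites (10.6%, 9.49 to 11.9%) were called in WT cells, against 34.8% of all PladB peaks, and 82 (3.16%, 2.56 to 3.91%) in C258A cells, against 16.2%. Induction of the WT form thus went with 8.87 times as many calls at PladB-alone sites and 1.39 times as many at shared peaks. List length moved with this: the WT list grew from 8575 to 31735 peaks. With all 6 engineered lists reduced to their 8575 highest-scoring peaks, PladB-alone sites went from 1.20% (0.844 to 1.69%) to 2.08% (1.60 to 2.71%) in WT cells, with intervals that overlapped, while shared peaks went from 26.6% to 13.7%. In C258A cells, whose lists were of like length as deposited (12752 and 13299 peaks), the numbers were 85 and 82, but 10 sites were common to both. Those 10 were 11.8% of the calls without doxycycline, against 37.0% kept at shared peaks, a comparison not matched for score. Of the 82 sites called in induced C258A cells, 79 were also called in induced WT cells. Shared peaks were nested in the same way, with 5199 of 5290.

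WT peaks on PladB-alone sites in the induced DMSO list were not confined to its bottom. Their median lay at percentile 39.2 of score, against 59.6 for peaks on shared PladB sites and 45.3 for the 20003 peaks on no PladB site. Of the 275, 104 (37.8%) were in the upper 50% of that list and 19 (6.91%) in the upper 10%.

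Exposure of induced cells to WX-02-23 gave 174 sites (6.72%, 5.81 to 7.75%) in WT cells, against 27.2% of all PladB peaks, and 124 (4.79%, 4.03 to 5.68%) in C258A cells, against 24.1%. In WT cells 133 of the 275 DMSO sites (48.4%) were still called with WX-02-23, compared with 68.1% of such shared peaks. In C258A cells 70 of 82 (85.4%) were, compared with 92.5%. These comparisons were not matched for score. In the induced DMSO lists, peaks on PladB-alone sites had a lower median percentile of score than peaks on shared PladB sites. The values were 39.2 against 59.6 in WT cells and 43.5 against 55.5 in C258A cells. The 4 lists of induced cells share FOXA1 induction and differ in length, from 13299 to 31735 peaks.

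After FOXA1 knockdown 4 sites (0.154%, 0.0600 to 0.396%) had a peak, against 3.70% of all PladB peaks. They lay on chromosome 9 from 134889692 to 134890101, on chromosome 2 from 27424179 to 27424369, and on chromosome 1 from 86682553 to 86683061 and from 142910560 to 142911505. Their PladB scores were 133, 108, 92.8 and 92.1, and no engineered list called any of them. The chromosome 2 site was 191 bp wide, the narrowest in the set.

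**Figure D4:**
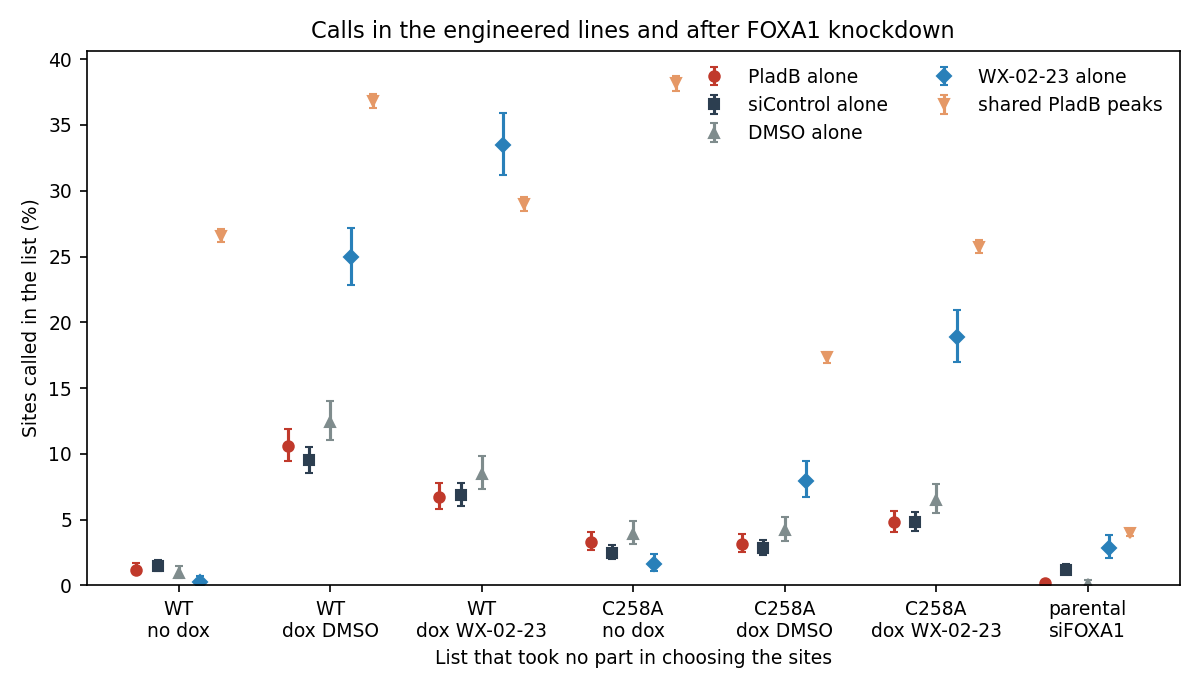
Share of sites called (vertical axis, percent, Wilson 95% intervals) in each of the 7 lists that took no part in the rule (horizontal axis), for single-list sites of PladB, siControl, DMSO and WX-02-23 and for shared PladB peaks. PladB-alone sites lie near the siControl and DMSO sets in all 6 engineered lists, whereas the WX-02-23-alone set reaches 33.5% in induced WT cells exposed to that compound.

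In the engineered lists these shares resembled those of the siControl-alone and DMSO-alone sets. In WT cells with doxycycline and DMSO, siControl-alone sites were called at 9.51% (8.56 to 10.5%) and DMSO-alone sites at 12.5% (11.03 to 14.03%), both overlapping the 10.6% of PladB-alone sites. In each of the 6 engineered lists, the interval of PladB-alone sites overlapped those of the siControl and the DMSO sets. WX-02-23-alone sites lay apart, with 24.9% (22.8 to 27.2%) in induced WT cells with DMSO and 33.5% (31.2 to 35.9%) once those were given WX-02-23. In the knockdown list 40 siControl-alone sites (1.20%, 0.882 to 1.63%) had a peak, a share whose interval lay above that of PladB-alone sites. So did those of WX-02-23-alone (2.83%, 2.11 to 3.79%) and WX-02-43-alone sites (5.50%, 3.46 to 8.63%). The interval of DMSO-alone sites (0.107%, 0.0293 to 0.389%) overlapped that of PladB-alone sites. Differences between these sets were not tested, since each rests on 1 library.

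Since the share called rose with score among shared peaks, PladB-alone sites were set beside shared PladB peaks of the same score range. By the rule, each shared peak was already called in 1 or more of the other 4 parental lists, and each PladB-alone site in none. Matching by score does not remove that difference in selection. Between scores of 90 and 100, 9.14% (7.39 to 11.3%) of PladB-alone sites and 14.6% (12.9 to 16.5%) of shared peaks were called in WT cells with doxycycline and DMSO. Between 100 and 120 the shares were 10.5% (8.76 to 12.5%) and 15.9% (14.6 to 17.3%), and between 120 and 150 they were 10.7% (8.32 to 13.7%) and 19.9% (18.6 to 21.2%). In C258A cells without doxycycline the 2 lower ranges gave 2.34% (1.52 to 3.59%) against 6.64% (5.48 to 8.04%), and 2.94% (2.07 to 4.17%) against 8.04% (7.09 to 9.10%). In these 2 lists the intervals of PladB-alone sites lay below those of shared peaks in the 3 lowest ranges, a difference that was not tested. In the other 4 engineered lists they did so too in these ranges, with 3 exceptions where they overlapped. These were C258A cells with doxycycline and DMSO between 90 and 100 (2.09 to 4.43% against 3.75 to 5.94%) and between 120 and 150 (2.43 to 5.82% against 5.44 to 7.02%), and WT cells without doxycycline between 90 and 100 (0.398 to 1.68% against 1.67 to 3.24%). Between 150 and 200 the intervals overlapped in induced WT cells with DMSO, at 18.0% (13.1 to 24.2%) against 21.9% (20.7 to 23.2%). They also overlapped in induced C258A cells with DMSO (1.51 to 6.97% against 6.47 to 8.01%). In the remaining engineered lists those of PladB-alone sites again lay below. Without doxycycline they were 0.853 to 5.48% against 6.71 to 8.28% (WT) and 4.61 to 12.4% against 14.9 to 17.1% (C258A). With WX-02-23 they were 3.39 to 10.4% against 15.4 to 17.6% (WT) and 2.995 to 9.77% against 11.6 to 13.5% (C258A). Of the 33 sites scoring 200 or more, 3 (interval 3.14 to 23.6%) were called in induced WT cells with DMSO. Without doxycycline 0 were called in either line, where a count of 0 in 33 allows up to 9.09%. Shared peaks with scores from 200 to 280 were called at higher shares. These were 28.1% (26.8 to 29.4%) in induced WT cells with DMSO, and without doxycycline 13.0% (WT) and 26.1% (C258A).

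**Figure D5:**
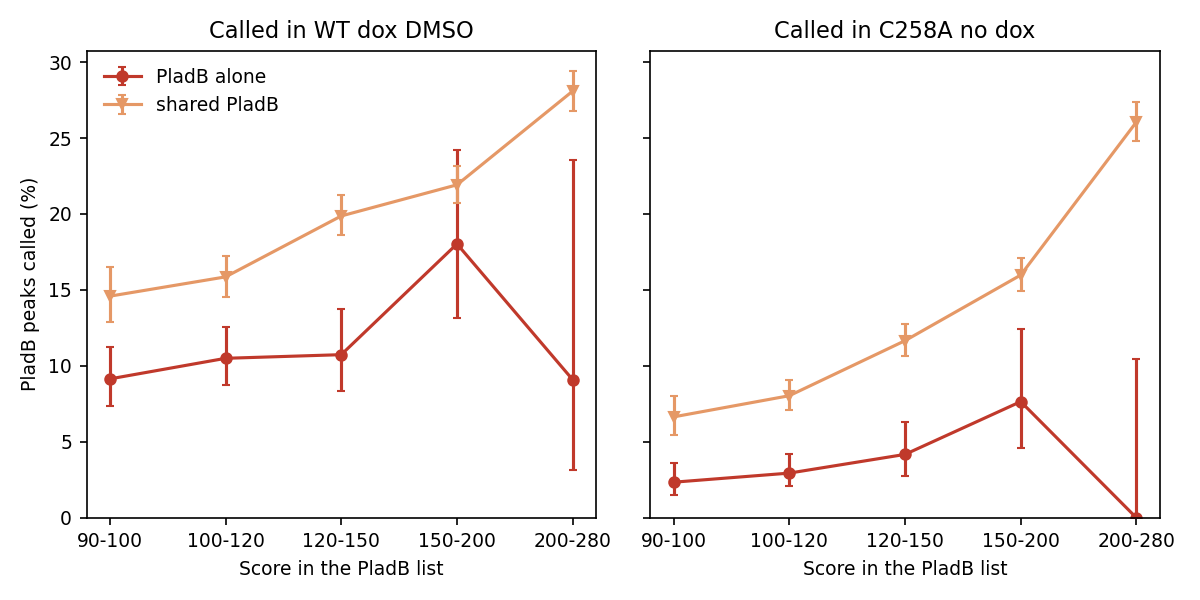
Share of PladB peaks called (vertical axis, percent, Wilson 95% intervals) in WT cells with doxycycline and DMSO (left) and in C258A cells without doxycycline (right), by range of score in the PladB list (horizontal axis). In the 3 lowest ranges the PladB-alone sites lie below the shared peaks of the same score, for example at 10.7% against 19.9% between 120 and 150 on the left. On the right the intervals stay apart in the higher ranges too.

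Sites found in engineered cells did not differ much from the rest in PladB score or width. The 384 had a median score of 109 (106 to 113) and a median width of 618 bp, and the 2207 not found had 106 (105 to 107) and 619 bp. They differed in place. Of the 384, 11.7% lay on the 6 most gene-dense autosomes and 26.8% on the 6 least dense, against 18.2% and 21.0% of the 2207. On chromosome 19, 1 of 76 sites was called in induced WT cells with DMSO, and on chromosome 21, 6 of 23 were, the lowest and highest shares of the 24 chromosomes. The engineered lists carried the same tilt: the dense autosomes held 9.39% to 13.6% of their peaks, and 15.01% of PladB peaks. Shared PladB peaks showed it as well, with 29.7% called in that list on the dense and 41.2% on the sparse autosomes.

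The combinations of calls show what the 384 sites consist of. The most frequent was WT cells with doxycycline and DMSO and no other list, with 94 sites. Next came 46 sites called in all 4 induced lists and in neither list without doxycycline. A further 40 were called in C258A cells without doxycycline alone, 38 in both induced WT lists and 33 in WT cells with WX-02-23 alone. Combinations were not counted over all PladB peaks, and the lists differ in length. Whether any combination is particular to the PladB-alone sites was not tested.

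The 10 highest-scoring PladB-alone sites show the upper end of the set (hg19 coordinates, counted from 1). The first lay on chromosome 19 from 19151252 to 19152328, was 1077 bp wide, scored 277 and had its nearest DMSO peak 52953 bp away. The second, on chromosome 9 from 86594764 to 86595826, scored 272 and had a DMSO peak at 711 bp. The third, on chromosome 3 from 179321377 to 179322286, scored 260 and lay 40396 bp from a DMSO peak. None of these 3 was called in an engineered list. Among the 10, 2 were called there: the site on chromosome 1 from 150847017 to 150847926, scoring 260, in both induced WT lists, and the site on chromosome 11 from 107254237 to 107255117, scoring 248, in induced WT cells with DMSO. The other 5 lay on chromosome 5 from 143549362 to 143550508, on chromosome 17 from 57719844 to 57721230, on chromosome 1 from 28411741 to 28412611, on chromosome 3 from 147086700 to 147087941 and on chromosome 6 from 48606106 to 48607057, with scores from 237 to 253. The site on chromosome 17 was the widest of the 10, at 1387 bp, and a peak of another parental list lay 102 bp from it. All 10 ranked between 14024 and 15989 of the PladB list.

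The 5 highest-scoring of the 11 sites called in 5 engineered lists were missing in WT cells without doxycycline alone among those lists. The one on chromosome 7 from 118975286 to 118975972 was weak with PladB, at a score of 116 and rank 27624 of 33121. It was among the strongest peaks of the induced lists, at rank 449 of 31735 (DMSO) and 511 of 25849 (WX-02-23) in WT cells, and at rank 136 of 13299 (DMSO) and 73 of 20609 (WX-02-23) in C258A cells. In C258A cells without doxycycline it ranked 9634 of 12752. The site on chromosome 5 from 111294822 to 111295381 ranked 27087 with PladB, 2734 in WT cells with doxycycline and DMSO and 18015 with WX-02-23. In induced C258A cells its ranks were 1372 (DMSO) and 5428 (WX-02-23). The sites on chromosome 4 from 70435960 to 70436609 and on chromosome 1 from 77220308 to 77220916 ranked 3627 and 3855 in WT cells with doxycycline and DMSO. The fifth, on chromosome 11 from 90787659 to 90788255, ranked 11009 there and 3074 with WX-02-23. These sites were picked for their calls in engineered lists, and the rule kept the strongest PladB peaks out, so their ranks in both kinds of list are a description.

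The 5 sites farthest from a DMSO peak were 597788 to 738942 bp away, on chromosomes 14 (98840503 to 98841067 and 99122586 to 99123227), X (51201828 to 51202447), 12 (108169927 to 108170439) and 2 (141825809 to 141826377). Their scores lay between 91.6 and 165. Those on chromosome 14 were each other's nearest PladB-alone neighbour, 281519 bp apart. None of the 5 was called in an engineered list, and peaks of another parental list lay between 13402 and 267616 bp from them. Genes at the named positions, and their sequences, were not analysed here.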

How the data were processed

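FOXA1 ChIP-seq peak lists of 12 libraries were used, 1 per condition. Bowtie2 and the build hg19 are named in the submitters' processing notes. Peak names in the deposited files begin with MACS, and the caller's version, threshold and control are not given in the sources used here. Each file had 5 columns, the last a score that the authors deposited for each peak without a definition, with no value under 90.00. Lists were not pooled.

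Members were PladB peaks overlapping no peak of the other 4 parental lists by 1 bp or more; gaps run between peak edges (numpy 2.4.6, pandas 2.3.3). Intervals came from scipy 1.17.1. Overlap functions were checked on made-up peaks with known answers. Genes per Mb are protein-coding genes of the GRCh38.p14 table per chromosome, divided by the highest hg19 peak end; none of its coordinates was used. No hg19 genome or annotation was used, so sequences, motifs and genes near sites were left out.

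The members, lists and comparisons were chosen with earlier results of these data known. Named sites were the 10 with the highest score, the 5 called in most engineered lists, the 3 runs with the most sites (ties by chromosome and position), the 5 farthest from DMSO peaks, those with a siFOXA1 peak and 5 on each side of the rule.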

Additional observations from a re-analysis of the deposited data

Results flagged for a closer look

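The share of PladB-alone sites called changed differently in the WT and C258A lines under the same contrast, with 1 library per condition. Doxycycline with DMSO against no doxycycline gave a change of 9.42 percentage points for the WT line. The C258A line gave -0.116 (85 and 82 sites), with intervals that overlapped almost fully (2.66 to 4.04% and 2.56 to 3.91%). For WX-02-23 against DMSO after induction the change was -3.90 points (WT) and 1.62 points (C258A). The differences between the lines were not tested. Shared PladB peaks moved in opposite directions in the lines under both contrasts, so a difference between the lines is not particular to the PladB-alone sites. With doxycycline the called share of shared peaks went from 26.6% to 36.8% (WT) and from 38.2% to 17.3% (C258A). With WX-02-23 it went from 36.8% to 29.0% (WT) and from 17.3% to 25.8% (C258A). The deposited lists differ in length, and with all 6 engineered lists at 8575 peaks doxycycline took the WT share from 1.20% to 2.08% and the C258A share from 1.12% to 1.89%. WX-02-23 then took the WT share from 2.08% to 1.97% and the C258A share from 1.89% to 1.81%. At that length the directions at PladB-alone sites were the same in both lines, and the intervals overlapped for both contrasts. At that length shared peaks went with doxycycline from 26.6% to 13.7% (WT) and from 26.9% to 11.9% (C258A). With WX-02-23 shared peaks still moved in opposite directions. They went from 13.7% (13.30 to 14.07%) to 12.4% (12.04 to 12.78%) in WT cells. In C258A cells they went from 11.9% (11.55 to 12.28%) to 12.3% (11.93 to 12.67%), with intervals that overlapped.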

How the results depend on the processing

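Alternative settings gave 37 values for 7 results. Of these, 21 moved out of the main value's 95% interval (for counts, by over 1.5 times) and 16 did not. The 2 with engineered lists at equal length and the 7 from autosomes alone were chosen after seeing the data, and all 7 of the latter stayed inside. Taking the top 50% of the source list left 13 PladB-alone and 30 siControl-alone sites, with a median score of 248, a median gap to DMSO of 13941 bp, 0% with another site within 100 kb, 15.4% called in WT and 0% in C258A cells with doxycycline and DMSO. With the 5 parental lists at 17217 peaks, the corresponding values were 604 and 680 sites, 246, 41519 bp, 6.62%, 20.4% and 5.13%; peaks that the deposited lists share are then often counted as alone by construction. A reciprocal overlap of 50% moved the median score to 107.8, the gap to 22066 bp, the share with another site within 100 kb to 24.5% and the WT share to 9.23%. Counting peaks up to 500 bp apart as shared moved the gap to 26298 bp. With the engineered lists at 8575 peaks the WT and C258A shares were 2.08% and 1.89%. The siControl set was larger than the PladB set under each alternative run on both. No paired analysis was possible because each group has 1 library.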
